A study of Arabidopsis thaliana with 28 samples.

Results

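The genes described here are the annotated Arabidopsis thaliana genes whose signal was at least 2-fold lower in plants on sucrose. Of 692 probes that the platform annotation ties to 1 gene, 81 had a mean log2 level at least 1 lower on sucrose and a mean above -2.5 without it. Leaving out 5 of these by name (PSBW, chr31, Z-ISO, GH9B16 and CML41) gave 76 member genes, each with 1 probe, out of 3439 probes in all. Over all 3439 probes, 324 met both thresholds (9.42%), most of them with several genes or no listed gene. The members were thus picked for their difference between the media, and that difference is given below as a description. No p-value for it is printed. Counts of members called by limma are given beside the share or the number of all probes called, and nothing is read from them.

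The pSuc group was wild-type Columbia-0 grown with 2% sucrose in Murashige and Skoog medium, a mineral medium for plant culture. The H2O group was the same wild type on that medium without the added sugar. Each group had 14 arrays of total RNA, and the labels name no organ, age, culture or light condition. Arrays with consecutive numbers within a group resembled each other most for 26 of the 28 arrays, so they were averaged into 7 sets of 2 arrays per group. Nothing in the labels says that the sets came from separate plants, so their spread may be technical. Precision is limited by the number of separate plants or RNA samples, which is not known here.

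Sugars act in plants as nutrients and as signals. Sugar supply is known to lower many genes of photosynthesis and of reserve mobilisation, through hexokinase-dependent and SnRK1 kinase pathways, while raising genes of storage and growth. Most proteins of the chloroplast and the mitochondrion are encoded in the nucleus, made in the cytosol and imported, so an array of nuclear genes reads both organelles. Roles stated below for genes known only by a locus code are background knowledge of that locus, not part of the deposited table or of the reference table, and they were assigned after the members were known. A role could be stated for 47 of the 76 members. The product of 12 is placed in the chloroplast, of 4 in the mitochondrion, of 3 in one or both of these organelles and of 7 in the nucleus or its envelope. The other 50 have no location stated here. The other one-gene probes were given no role or location, so these counts have no share beside them. Nothing is read from the size of a role group.

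Levels are log2 intensities raised to a floor of 0.0483 and quantile normalized, and differences are pSuc minus H2O on that scale. A signal at the floor takes a level of -4.37 after normalization. Levels of different probes are not compared as amounts of RNA. In these bulk samples, fewer cells of a type and less RNA per cell cannot be told apart.

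Sets of both groups stood apart from their group, and they touch every result below. Over the 76 members, the median level was -0.63 in pSuc set 1 and -2.31, -2.37, -2.55, -2.5, -2.54 and -2.58 in pSuc sets 2 to 7. It was -1.29 and -1.31 in H2O sets 1 and 2 and -0.53, -0.42, -0.54, -0.52 and -0.60 in H2O sets 3 to 7. For these genes pSuc set 1 therefore lay beside H2O sets 3 to 7, and H2O sets 1 and 2 lay between the groups. The levels of pSuc set 1 thus went against its label. Every group mean below keeps the labels as given, and whether arrays were exchanged between the groups was not tested. Over the 616 other one-gene probes the set medians stayed between -2.22 and -1.97 in the pSuc sets and between -2.34 and -2.18 in the H2O sets. Quantile normalization holds the median of so broad a set of probes nearly level, so nothing is read from that steadiness. The overall signal moved along with the members. The median deposited intensity of all probes was 0.339 in pSuc set 1 and 0.163 to 0.213 in pSuc sets 2 to 7. It was 0.182 and 0.213 in H2O sets 1 and 2 and 0.344 to 0.432 in H2O sets 3 to 7. At a median intensity of 0.213, the median level of the members was -2.37 in pSuc set 3 and -1.31 in H2O set 2. What part overall signal has in the members' difference was not tested. No label gives a batch.

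**Figure D1:**
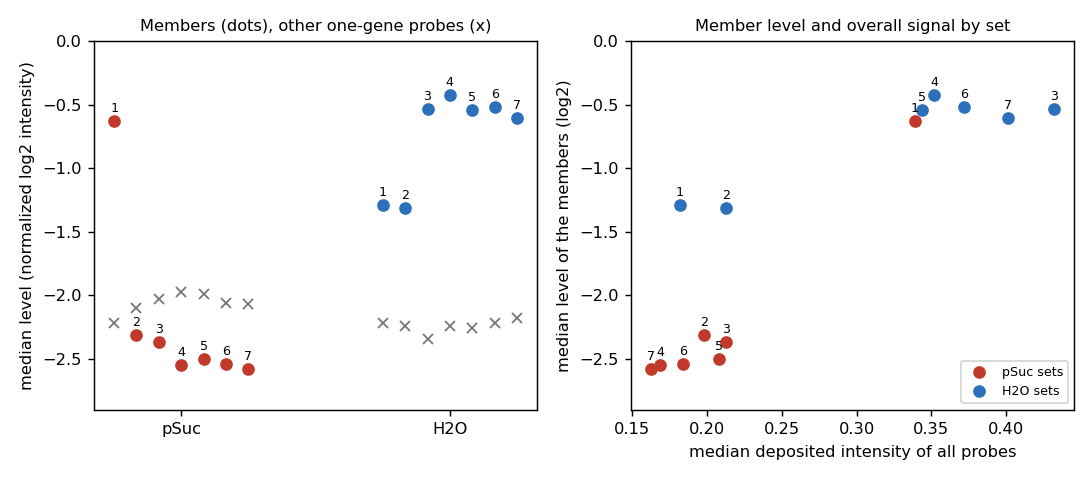
Left, the median normalized log2 intensity of the 76 members (dots) and of the 616 other one-gene probes (crosses) in each set of 2 arrays, with set numbers. Quantile normalization holds the crosses nearly level. Right, the median level of the members against the median deposited intensity of all probes (linear axis). The dots of pSuc sets 2 to 7 lie between -2.58 and -2.31, and pSuc set 1 lies at -0.63 beside H2O sets 3 to 7.

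The members differed by a median of -1.43 (2.69-fold lower on sucrose), against a median of 0.00 over all probes. Quantile normalization holds that second median near 0. It was -0.31 as deposited and 0.31 with median centring. The range over the members ran from -3.18 for AT4G13680 to -1.0 for AT3G02690. The difference was larger than 2 for 14 members, 1.5 to 2 for 21 and under 1.5 for 41. In limma, 58 of the 76 members were lower at a Benjamini-Hochberg adjusted threshold of 0.05 over all 3439 probes, where 12.4% of all probes were called lower. Nothing is read from that count, since the same contrast chose the members. In 21 members all 7 pSuc sets lay below the H2O mean, in 53 members 6 did and in 2 members (AT1G79220 and AT3G50880) 5 did. These counts rest on the same contrast and have no share over all probes beside them, so nothing is read from them either.

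**Figure D2:**
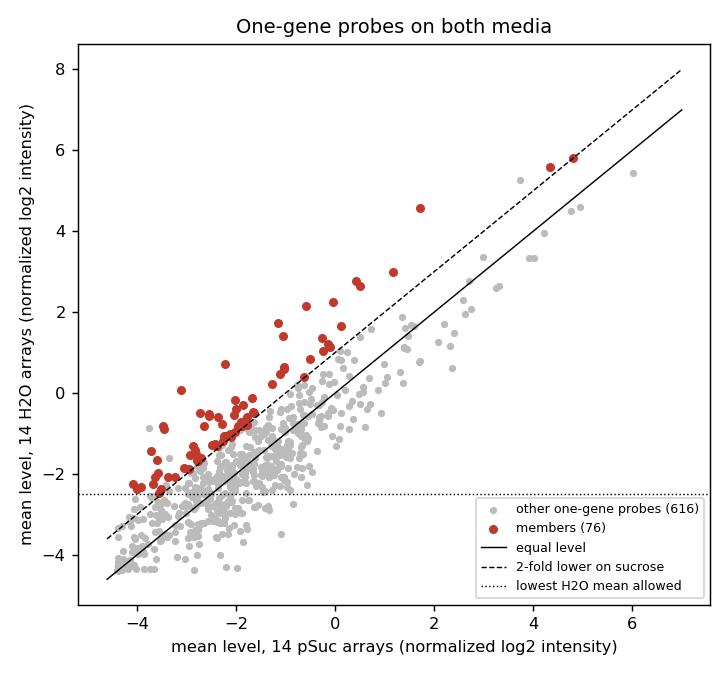
Mean normalized log2 intensity of each one-gene probe on the 14 pSuc arrays (horizontal axis) and the 14 H2O arrays (vertical axis). The 76 members (red) are those on or above the dashed 2-fold line and above the dotted line at -2.5, less the genes left out by name. They span levels from near the floor to the 2 bright members, AT4G31530 and AT2G27290, at the upper right.

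At the edge of the rule, AT3G02690 (-1.0), AT4G27250 (-1.016) and AT1G71910 (-1.018) were just inside the difference threshold. AT3G44810 (-0.999), AT2G48090 (-0.997) and AT2G46050 (-0.993) were just outside. At the level threshold, AT4G20760, AT4G31210 and AT1G21660 were kept with H2O means of -2.46, -2.38 and -2.36. AT5G01860, AT1G08845 and AT3G13120 were lower on sucrose by at least as much as the rule asks but had H2O means of -2.54, -2.55 and -2.60.

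Among the groups with a stated role, plastid proteins had the most members, 12, and nothing is read from that size. Their median difference was -1.54, with a range from -2.15 to -1.02. They do not form 1 pathway. These 12 are not quite the 12 placed in the chloroplast above. AT3G06200 is included here although it is placed in the organelles, and AT1G01080 of the chloroplast is described with nucleic acid handling. AT1G76450 encodes a PsbP-domain protein of the thylakoid lumen, a relative of an extrinsic photosystem II subunit. It had a lowest, median and highest level of -1.06, 0.43 and 3.62 over the pSuc sets, against -0.20, 3.55 and 3.73 over the H2O sets. The highest pSuc value was set 1, the lowest H2O value was set 2, and the ranges overlapped. H2O sets 3 to 7 were close together, at 3.35 to 3.73, and the other H2O sets were at 0.91 and -0.20. The difference was -2.15 (4.43-fold), and -3.58 without pSuc set 1 and H2O sets 1 and 2. The SD over the sets was 1.52 in pSuc and 1.61 in H2O.

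AT4G31530, an NAD(P)-binding Rossmann-fold protein found in the chloroplast, was the brightest member. Its median deposited intensity was 27.6 on the pSuc arrays and 61.4 on the H2O arrays, on a scale whose maximum is near 100. Its level was 3.94, 4.89 and 5.74 (lowest, median, highest) over the pSuc sets, against 4.15, 6.23 and 6.44 over the H2O sets. Only pSuc set 1 exceeded the H2O set 1 value of 5.23, while H2O set 2 lay among the pSuc sets. The difference of -1.02 shrank to -0.30 when each array was centred on its median, where the median of all probes moved to 0.31.

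AT3G06200 encodes a guanylate kinase of the organelles, which makes GDP from GMP. Its level was -0.90, -0.22 and 2.68 over the pSuc sets, against -1.32, 2.49 and 3.35 over the H2O sets. The sets fell on either side of a wide gap. pSuc set 1 and H2O sets 3 to 7 were at 2.17 to 3.35, and all others, H2O sets 1 and 2 included, were at 0.13 or below. Its difference was -1.54, and -3.09 without pSuc set 1 and H2O sets 1 and 2.

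AT5G10920 encodes argininosuccinate lyase, the last enzyme of arginine synthesis. It was at -2.82, -1.06 and 1.0 over the pSuc sets, against -0.25, 0.65 and 1.52 over the H2O sets. CUTA, a copper-binding protein of the chloroplast, was at -4.37, -2.43 and -0.26 over the pSuc sets, against -1.08, -0.64 and 0.03 over the H2O sets. The ranges of both genes overlapped. For CUTA only pSuc set 1 did, since the other pSuc sets, at -2.30 or below, all lay below the H2O sets. For AT5G10920 pSuc set 2, at 0.02, lay above H2O sets 1 and 2 as well. The differences were -1.66 and -1.99.

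The other plastid members were enzymes, a transporter and an assembly factor. AT2G32040, a folate transporter of the plastid envelope, differed by -1.59, and AT1G24360, the ketoacyl-acyl carrier protein reductase of fatty acid synthesis, by -1.55. AT1G22700, a tetratricopeptide repeat protein that photosystem I accumulation depends on, differed by -1.56. Its SD over the sets was 1.11 in pSuc and 1.23 in H2O. AT4G29890, a choline monooxygenase-like protein, differed by -1.36. AT1G78620, a phytyl phosphate kinase that feeds tocopherol synthesis, differed by -1.16.

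A pair of the plastid members are enzymes on the route to purines. AT2G35390 encodes a phosphoribosyl pyrophosphate synthetase, and AT1G31220 the phosphoribosylglycinamide formyltransferase that acts later in the route. AT2G35390 averaged -2.78 ± 0.48 in pSuc and -1.65 ± 0.21 in H2O (SD, n = 7 sets each). AT1G31220 averaged -2.77 ± 0.42 in pSuc and -1.64 ± 0.25 in H2O (SD, n = 7 sets each). Both differed by -1.13 (2.19-fold and 2.18-fold), with small spreads, and for both the pSuc sets other than set 1 lay below all H2O sets. The values as deposited gave 3.41-fold and 3.36-fold. With 0.1 added to each intensity instead of the floor, both were 1.67-fold lower, which is under the 2-fold of the rule. With each block of 48 neighbouring spots centred on its median, an alternative chosen after seeing the data, the differences were -1.31 for AT2G35390 and -0.76 for AT1G31220, so that they did not stay equal.

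The mitochondrial members were 4, with a median difference of -1.82. AT4G32060 encodes an EF-hand protein that regulates the mitochondrial calcium uniporter. Its level was -0.97, -0.28 and 2.2 over the pSuc sets, against 1.95, 2.22 and 2.81 over the H2O sets. The H2O sets were tight (SD 0.30), and H2O set 1 was the highest of them. pSuc set 1 lay inside the H2O range and the next pSuc set was at 0.30. The difference was -2.31 (4.95-fold).

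AT5G49840 encodes a ClpX-type unfoldase, the chaperone part of a mitochondrial protease. It was at -4.37, -2.77 and -0.14 over the pSuc sets, against -1.26, -0.46 and 0.37 over the H2O sets. AT4G17650 belongs to the coenzyme Q-binding COQ10 family. It was at -2.16, -1.23 and 1.2 over the pSuc sets, against -0.44, 0.82 and 1.30 over the H2O sets. For both genes pSuc sets 2 to 7 lay below all H2O sets and pSuc set 1 did not. The differences were -2.02 and -1.62. AT4G31930, of the mitochondrial glycoprotein family, was at the floor in 6 of 7 pSuc sets and in H2O set 1, and at -3.47 in H2O set 2. Above these were pSuc set 1 at -1.15 and H2O sets 3 to 7 at -2.19 to -1.26. Its difference of -1.59 depends on the floor.

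Genes of nucleic acid handling numbered 7 (median -1.62). AT4G21770, of the pseudouridine synthase family that modifies RNA, had a level of -4.37, -4.37 and -0.49 over the pSuc sets, against -4.37, -0.43 and 1.17 over the H2O sets. It was at the floor in 4 pSuc sets and in H2O set 1, and listed at 0 on 8 pSuc arrays and 2 H2O arrays. Its difference was -2.67, or 6.38-fold, and without H2O set 1 it was 9.64-fold. With 0.1 added to each intensity instead of the floor it was 4.21-fold. AT4G04370, a pentatricopeptide repeat protein of a family that binds organelle RNA, was at -3.90, -2.84 and -0.39 over the pSuc sets, against -1.36, -0.75 and -0.39 over the H2O sets. Its pSuc sets other than set 1 were at -2.52 or below, so that set alone overlapped. The difference was -1.82.

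AT1G01080 encodes an RNA-binding protein of the chloroplast. It was at -1.35, -0.43 and 1.40 over the pSuc sets, against 1.04, 1.28 and 1.72 over the H2O sets. H2O sets 1 and 2, at 1.46 and 1.72, were not below the other H2O sets here, and the H2O SD was 0.28. The difference was -1.62 (3.08-fold). AT4G31210, a type IA DNA topoisomerase of the organelles, also differed by -1.62, but was at the floor in 5 pSuc sets and 1 H2O set. AT3G04500, with an RNA recognition motif, differed by -1.5. AT1G79220, of the mTERF family of organelle transcription factors, differed by -1.10, and AT2G19870, a SpoU-type RNA methyltransferase, by -1.07.

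The sugar and cell wall members were 3, with a median difference of -2.35. AT4G18180 is a pectin lyase-like protein, a fold of pectin-degrading enzymes. It was at -3.10, -0.56 and 1.94 over the pSuc sets, against -0.02, 1.94 and 2.27 over the H2O sets. AT4G19900, of the alpha 1,4-glycosyltransferase family, was at -1.03, 0.27 and 3.28 over the pSuc sets, against 1.25, 3.13 and 3.44 over the H2O sets. AT1G50390, of the pfkB carbohydrate kinase family that holds the fructokinases, was at -3.27, -1.90 and -0.25 over the pSuc sets, against -0.63, -0.19 and 0.26 over the H2O sets. In all 3 genes the pSuc sets other than set 1 lay below every H2O set. The differences were -2.48, -2.35 and -1.85. Without the 3 sets that stood apart, AT4G18180 was 11.5-fold and AT4G19900 9.71-fold lower, against 5.57-fold and 5.11-fold with all sets.

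Genes of transcription, chromatin and DNA repair numbered 6 (median -1.46). AT1G44830 encodes an AP2/ERF transcription factor. It was at -4.37, -3.99 and -1.13 over the pSuc sets, against -2.11, -1.49 and -0.56 over the H2O sets. AGL54, a MADS-box factor, was at -4.37, -4.37 and -1.58 over the pSuc sets, against -1.95, -1.59 and -1.47 over the H2O sets. AT2G37000, a TCP factor of a family that controls cell division and growth, was at -4.37, -4.0 and -1.98 over the pSuc sets, against -3.11, -1.83 and -1.31 over the H2O sets. pSuc set 1 was the highest pSuc set in all 3 and the only one to reach the H2O range for AT1G44830 and AGL54. All 3 were dim, with 3, 4 and 3 pSuc sets at the floor. With 0.1 added to each intensity instead of the floor, their folds of 4.89, 3.81 and 2.97 became 2.61, 2.11 and 1.83.

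A histone H3 gene, AT1G13370, averaged -0.50 ± 0.95 in pSuc and 0.84 ± 0.91 in H2O (SD, n = 7 sets each), a difference of -1.34. AT5G40070, another MADS-box gene, differed by -1.20, and AT3G50880, a DNA glycosylase that removes damaged bases, by -1.06.

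Members of signalling, stress and protein handling numbered 7 (median -1.77). AT4G17070 encodes a peptidyl-prolyl isomerase, a class of protein-folding enzymes. Its level was 0.58, 1.80 and 3.87 over the pSuc sets, against 3.59, 4.60 and 5.38 over the H2O sets. Its median deposited intensity was 2.80 on the pSuc arrays and 23.4 on the H2O arrays, with no array at 0, so the floor plays no part in it. Only pSuc set 1 reached the H2O range, and the next pSuc set was at 1.89. The difference was -2.87, or 7.30-fold, and 4.81-fold after median centring of each array. It was 12.1-fold without pSuc set 1 and H2O sets 1 and 2.

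AT5G40030 encodes a protein kinase. It was at -2.41, -1.60 and 2.57 over the pSuc sets, against -0.35, 2.40 and 2.80 over the H2O sets. pSuc set 1 was inside the H2O range and H2O set 1 was the lowest of its group. Its difference was also -2.87, or 7.30-fold, and without pSuc set 1 it was 11.2-fold. Without H2O sets 1 and 2 as well it was 19.7-fold. AT5G63490, a CBS-domain protein, was at -4.37, -3.56 and -0.86 over the pSuc sets, against -1.32, -0.70 and -0.53 over the H2O sets. Again only pSuc set 1 overlapped, at a difference of -2.57. With 3 pSuc sets at the floor, its fold of 5.94 became 3.32 with 0.1 added to each intensity. AILP1, an aluminium-induced protein, differed by -1.77. AT3G57120, a protein kinase, differed by -1.48, and AT4G31470, of the CAP superfamily that includes pathogenesis-related proteins, by -1.40. AT4G39570, an F-box protein with kelch repeats, differed by -1.18.

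Transport and cell structure held 6 members (median -1.22). AT3G16310 encodes a nucleoporin of the nuclear pore. It was at -2.55, -1.95 and 0.03 over the pSuc sets, against -0.52, -0.01 and 0.11 over the H2O sets. AT3G43610, of the gamma-tubulin complex family that starts microtubules, was at -4.37, -2.76 and -1.07 over the pSuc sets, against -2.05, -1.27 and -0.92 over the H2O sets. AT1G73430, a subunit of the COG tethering complex of the Golgi, was at -0.57, -0.26 and 1.08 over the pSuc sets, against 0.80, 1.18 and 1.38 over the H2O sets. In each, pSuc set 1 was the only pSuc set inside the H2O range. The differences were -1.57, -1.42 and -1.25. AT1G02260, a divalent ion symporter family member, differed by -1.19, AT1G21660, a J-domain protein, by -1.16, and AT3G02690, an EamA-like transporter, by -1.0.

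The remaining members with a stated role were both oxidoreductases. AT4G12270, of the copper amine oxidase family, was at -4.37, -4.37 and -3.05 over the pSuc sets, against -3.22, -2.37 and -1.48 over the H2O sets. It was at the floor in 5 pSuc sets and listed at 0 on 8 pSuc arrays and on no H2O array. Its H2O sets 1 to 3 were the high ones, at -1.73, -1.48 and -1.56, and pSuc set 1 alone overlapped with the H2O sets. The difference was -1.84. AT4G27250, a Rossmann-fold protein, was at -1.24, -0.51 and -0.03 over the pSuc sets, against -0.27, 0.46 and 1.03 over the H2O sets. Its pSuc set 1 was only slightly above the second highest pSuc set, at -0.35, and the difference was -1.02.

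**Figure D3:**
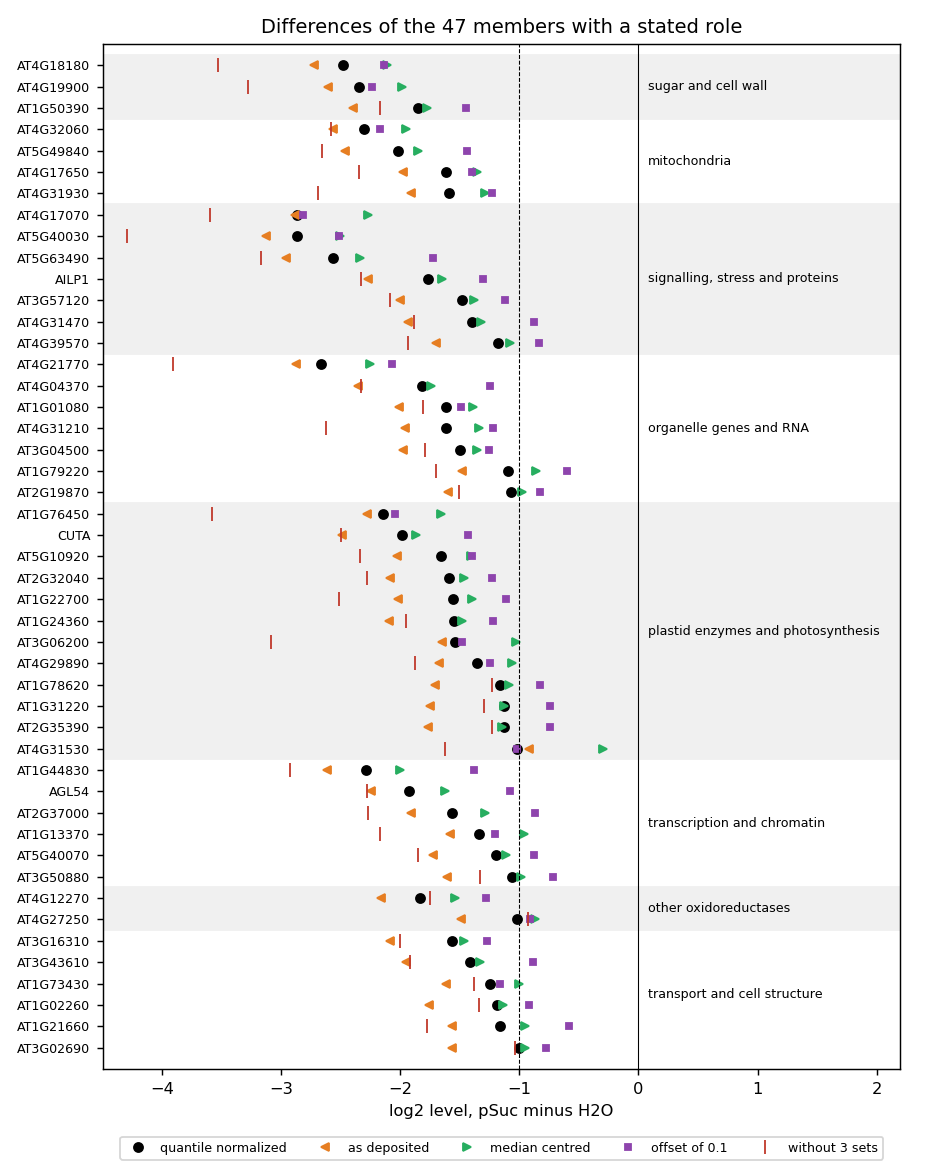
Difference in log2 level, pSuc minus H2O, of the 47 members with a stated role, grouped by role. Black dots are the quantile normalized values, and the other marks give the same difference as deposited, median centred, with an offset of 0.1 and without pSuc set 1 and H2O sets 1 and 2. Every mark lies left of 0, and the offset of 0.1 moves dim genes such as AT1G44830 and AGL54 furthest towards it.

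The 29 members without a stated role include AT4G13680, which had the largest difference after quantile normalization, as deposited, with median centring and with a floor at the 10th percentile of positive values. AT4G17070 had it with the offset (-2.82) and with spot blocks centred (-3.17), and AT5G40030 had it without pSuc set 1 and H2O sets 1 and 2 (-4.3). AT4G13680 was at -4.37, -3.50 and 0.32 over the pSuc sets, against -0.75, 0.29 and 0.79 over the H2O sets. AT3G50350 was at -4.37, -2.48 and 0.34 over the pSuc sets, against 0.50, 0.75 and 1.08 over the H2O sets. AT1G16080 was at -1.77, -0.87 and 2.65 over the pSuc sets, against 1.88, 2.07 and 2.55 over the H2O sets. AT3G50350 was the only one of the 76 members (1.32%) whose pSuc sets all lay below its H2O sets, where 1.08% of all probes did. In AT1G16080 pSuc set 1 was above every H2O set, and the other pSuc sets were at -0.74 or below. The differences were -3.18, -2.93 and -2.75. AT4G13680 was at the floor in 2 pSuc sets and AT3G50350 in 1, and their folds of 9.04 and 7.63 became 4.95 and 5.06 with the offset.

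AT2G27290 and AT2G46220 were among the brightest members. AT2G27290 was at 2.96, 4.40 and 5.95 over the pSuc sets, against 4.99, 5.65 and 5.95 over the H2O sets. AT2G46220 was at 0.10, 1.23 and 2.49 over the pSuc sets, against 2.46, 2.98 and 3.79 over the H2O sets. In both genes the pSuc sets other than set 1 lay below every H2O set. For AT2G27290 this was by a very thin margin, with pSuc set 2 at 4.97 and H2O set 2 at 4.99. Their differences were -1.24 and -1.82, and the first was -0.52 after median centring.

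The other 24 had differences from -2.23 to -1.02. Those over 1.5 were AT2G26110 (-2.23), AT5G24690 (-1.59), AT2G46300 (-1.57) and AT2G35450 (-1.54). Between 1.2 and 1.5 were AT4G03150 (-1.43), AT2G20920 (-1.32), AT2G41120 (-1.29) and AT5G38310 (-1.27). Differences from -1.19 to -1.12 were those of AT2G36920, AT4G22650, AT2G37880, AT3G44570, AT3G21810, AT4G22370, AT3G57570 and AT5G02710. Those from -1.11 to -1.02 were of AT4G27510, AT2G31920, AT3G53470, AT4G20760, AT2G41950, AT2G21720, AT2G14660 and AT1G71910. AT3G57570 differed in its pattern from most. Its highest pSuc set was set 3 at -0.13, pSuc set 1 was at -2.02, and its H2O sets ran from -2.89 in set 7 to 1.06 in set 2. Without the 3 sets that stood apart its difference was -0.77, the smallest of all members there.

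**Figure D4:**
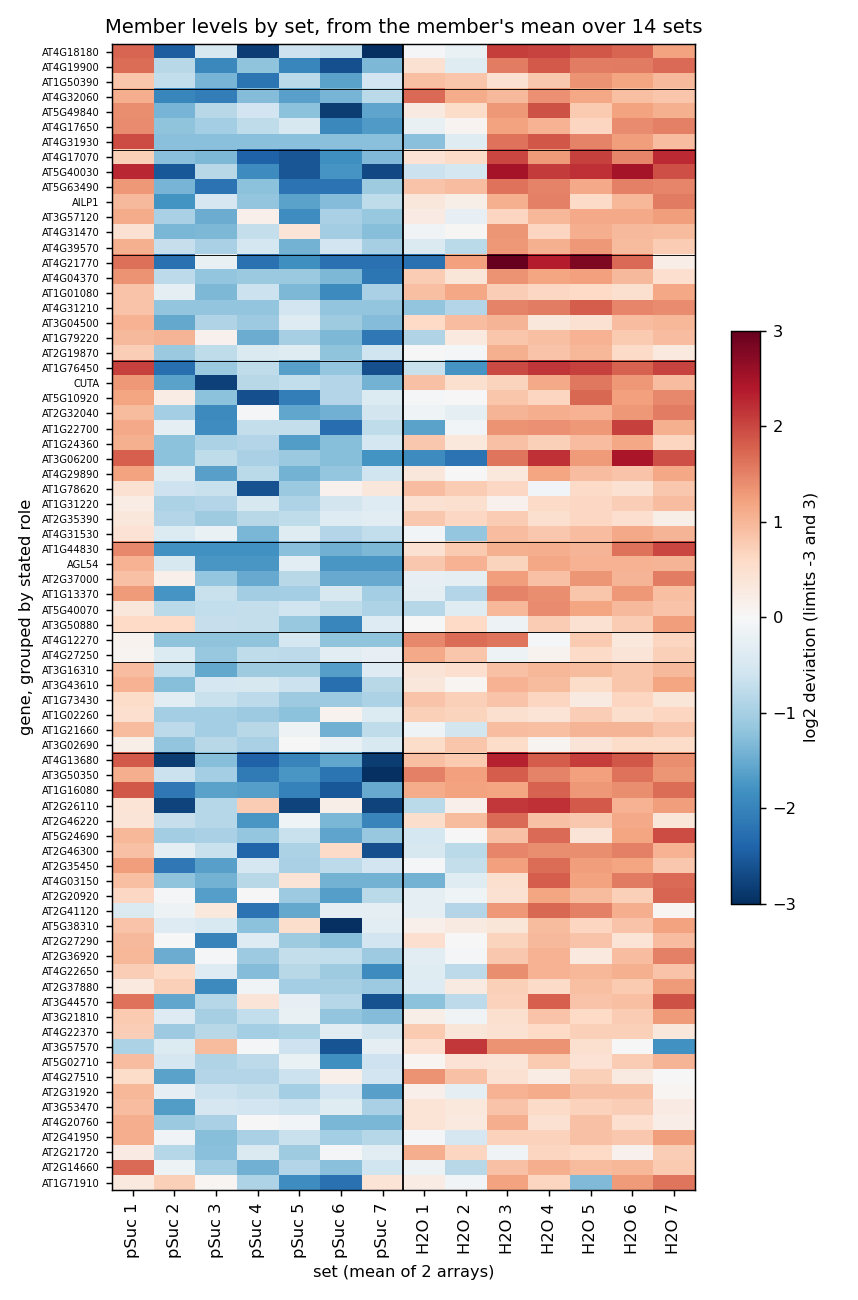
Level of each of the 76 members in each set of 2 arrays, as the log2 deviation from that gene's mean over the 14 sets (colour limits -3 and 3), pSuc sets left and H2O sets right, with lines between the groups of role. The column of pSuc set 1 has the colour of the H2O sets for most genes, and H2O sets 1 and 2 are paler than H2O sets 3 to 7 for most genes, with AT4G12270, AT4G32060 and AT1G01080 among the exceptions.

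How far the sets that stood apart carry this pattern could be counted gene by gene. pSuc set 1 was the highest pSuc set in 70 of the 76 members (92.1%), against 32.1% of the 616 other one-gene probes. The exceptions were AT2G26110, AT2G41120, AT2G37880, AT3G57570, AT1G79220 and AT1G71910. In 75 members pSuc set 1 was at or above the lowest H2O set. H2O set 1 or 2 was the lowest H2O set in 53 members (69.7%), against 48.5% of the other one-gene probes. With pSuc set 1 left out, 39 members (51.3%) had all pSuc sets below all H2O sets, as did 7.68% of all probes. With H2O sets 1 and 2 left out as well, 66 members (86.8%) did, as did 15% of all probes. Nothing is read from these shares, since the same contrast chose the members. Without the 3 sets the median difference of the members was -1.93 with a range from -4.30 to -0.77. Those 3 sets were picked for lying away from their group in the same data, so leaving them out favours larger differences by construction.

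How far the members varied together within the groups was described by their correlations. Taken as deviations from each group's mean, the levels of pairs of members correlated at a mean of 0.50 over the 14 sets, against 0.00 for pairs of the other one-gene probes. Over the 11 sets left without pSuc set 1 and H2O sets 1 and 2, the mean was 0.00 for the members and 0.01 for the others. These means are across gene pairs that share the same arrays, and they carry no test. The members were picked for 1 direction of the difference, and the sets that stood apart lay along that same difference. The other probes include some higher and some lower on sucrose, whose deviations can cancel in a mean. Nothing is therefore read from 0.50 against 0.00. The 3 sets were picked because the members as a group lay away from their own group there, so the lower mean without them follows from that choice. The median SD over sets was 0.96 in pSuc and 0.55 in H2O for members, against 0.45 and 0.36 for the others. It was 0.57 over pSuc sets 2 to 7 and 0.30 over H2O sets 3 to 7 for members. Between the 2 arrays of a set the median SD was 0.28, pooled over all 14 sets. That value is for single arrays and the others are for averages of 2 arrays, so they are not directly comparable.

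Signal at the bottom of the scale limits the folds of a part of the members. In 24 members at least 1 pSuc set had both arrays at or below the floor, and in 5 at least 4 did (AT4G31930, AT4G31210, AT4G12270, AT4G21770 and AGL54). An H2O set was at the floor in 4 members. The other 52 members had no set at the floor, and 61 had no array listed at 0. The H2O mean was above the median level of all probes (-2.03) in 67 members and the pSuc mean in 33. Nothing is read from these counts, since the rule itself used both means to choose the members.

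The members lay on all 5 chromosomes. Chromosome 4 held 21 of its 120 one-gene probes as members (17.5%) and chromosome 2 held 18 of 124 (14.5%). The shares were 8.62% on chromosome 1, 9.23% on chromosome 3 and 6.99% on chromosome 5. Within 10 annotated genes of another member lay 8 members (10.5%), against 4.07% of the other one-gene probes. They form the pairs AT2G35390 and AT2G35450, AT2G36920 and AT2G37000, AT4G31470 and AT4G31530, and AT5G40030 and AT5G40070. On the array, 25% of members had another member within 10 spot numbers, against 25.5% of the other one-gene probes.

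The number of genes that the rule finds depended on the scaling and the floor. With the values as deposited it found 161, which include 75 of the 76 members, and the mirrored rule for genes higher on sucrose found 11, against 50 after quantile normalization. After median centring it found 62, all of them members, and the mirrored rule found 73. With 0.1 added instead of the floor it found 43, of which 42 were members. In every one of these settings all 76 members had lower means in pSuc than in H2O, with the smallest difference at -0.30 for AT4G31530. Nothing is read from that shared direction, since the same arrays chose the members. The median difference over all probes was -0.31 as deposited and 0.31 with median centring. The rule held for 37 members under all of these and with a floor at the 10th percentile of positive values. They include 8 of the 10 brightest members, without AT4G31530 and AT2G27290. Of the 35 members with a difference over 1.5 they include 33, without AT5G24690 and AT2G37000.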

How the data were processed

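The deposited values were linear intensities, 1 for each probe on each array and none below 0. Array maxima of 81.5 to 100 look as if the authors had scaled each array. How they scanned, corrected and normalized the arrays is not given in the sources used here. Absolute scale and background are therefore unknown. Between 11.9 and 17.5% of probes were listed at 0 per array.

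Intensities below 0.0483, the 5th percentile of those above 0, were set to that value, log2 transformed and quantile normalized, since log2 medians of the arrays spanned 1.44. Members and role groups were chosen with earlier results of these data known. No table used here describes gene products, so the role groups were set by hand and not, as planned, from descriptions. Promoter motifs and protein features were not analysed. Averages of 2 consecutive arrays (7 per group; correlation within a set 0.903 to 0.989) entered limma 3.58.1 in R 4.3.3 (lmFit, eBayes, two-sided), adjusted by Benjamini-Hochberg over all 3439 probes at a threshold of 0.05.

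Of the 3439 probes, 692 had 1 gene in the platform annotation, 870 had several and 1877 were not listed. All 76 members matched the RefSeq table of assembly TAIR10.1 by gene identifier. No coordinates are given. Set values are given for members whose sets do not overlap, the 10 brightest, the 10 with the largest difference and the 3 with the largest difference in each role group. The order of genes for neighbour pairs came from the RefSeq table.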

Additional observations from a re-analysis of the deposited data

Results flagged for a closer look

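By Dixon's test, the gap between an extreme set and its neighbour over the group's range, 1 set was far out in 23 of 154 groups of 7 sets. Chance would flag about 1 in 20 of separate groups, but these groups share the same arrays and include the median over the members. That rate is therefore no background for them, and nothing is read from the number flagged. Only members and their median were examined. In 22 of the 23 flagged groups the set far out was pSuc set 1, as the highest pSuc set. For the median over the members the gap was 0.862 of the range. For single members it was 1.0 for AT4G31930, whose other pSuc sets were tied at the floor, 0.827 for AT1G44830, 0.768 for AT1G16080, 0.747 for AT5G40070, 0.712 for AT3G06200 and 0.703 for AT4G31210. It was 0.677 for AT5G63490, 0.667 for AT4G13680, 0.645 for AT5G24690, 0.64 for AT4G39570, 0.624 for AT5G40030, 0.605 for AT4G04370 and 0.603 for AT4G17070. It was 0.599 for AT4G32060, 0.598 for AT1G76450, 0.589 for AT2G14660, 0.583 for AT1G24360, 0.581 for AT4G19900, 0.578 for AT4G22370, 0.574 for AT2G19870 and 0.573 for AT1G13370. The other was H2O set 1 for AT1G79220, the lowest H2O set at a level of -3.13 (0.62).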

How the results depend on the processing

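All 76 members kept the direction of their difference under every scaling, floor and left-out set tried. Nothing is read from that, since members chosen for a large difference on these same arrays could hardly reverse. The causes of the changes below were not tested. The rule found 161 genes with the values as deposited, 43 with an offset of 0.1 and 66 to 94 with 1 set left out. Its other alternatives gave counts within 1.5 times of 76, centring by blocks of 48 spots (chosen after seeing the data) included. The median difference ran from -1.71 to -1.34 with 1 set left out.

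Over all probes limma called 1033 different, 605 higher and 428 lower. As deposited it called 189 higher and 739 lower, and with median centring 1076 higher. Without the 3 sets it called 1657 (919 higher and 738 lower), and with 28 arrays as separate samples 1710 (961 and 749). limma treat at 1.2-fold called 449 (251 and 198), and 33 members. With 1 set left out it called 764 to 1431, 457 to 810 higher and 307 to 621 lower, and 42 to 71 members. Numbers shared by the groups pair the sets in name only, since same-numbered sets did not all deviate together (correlations from -0.52 to 0.13). With that number as a replicate block, 416 probes (227 higher and 189 lower) and 29 members were called. Nothing is read from the counts of members in these settings, since the same contrast chose the members.

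Members whose sets do not overlap numbered 2 as deposited, 2 with median centring, 4 with spot blocks centred, 66 without the 3 sets and 1 to 39 with 1 set left out. The shares of all probes in these settings were 1.16, 0.814, 1.22, 15 and 1.08 to 7.68%. Folds moved by over 1.5 times for 36 members without the 3 sets, 10 with the offset, 8 as deposited, 5 with spot blocks and 3 with median centring. Unknown background limits the folds of dim members.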
